A study of Sus scrofa with 6 samples.

Results

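The endothelial lining of the abdominal aorta was followed in miniature pigs through 10 genes that mark endothelial cells or make nitric oxide there, namely PECAM1, VWF, CDH5, KDR, TEK, TIE1, ERG, EMCN, CLDN5 and NOS3. They were chosen by name, and each of the 10 names had 1 row among the 30477 genes of the expression table. All 10 were above 2 FPKM in every pig. The samples were whole abdominal aorta from male Wuzhishan pigs, a miniature breed, with 1 library per pig. The NC group (3 pigs) received normal chow, and the HFCF group (3 pigs) received chow high in fat, cholesterol and fructose, both for 6 months. The pigs were 3 to 4 months old by the sample labels and 6 to 7 months old at purchase by the methods. The study kept 5 pigs per diet, and how the 3 sequenced pigs were picked is not given in the sources used here.

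The endothelium is the single cell layer that lines the vessel lumen. PECAM1, CDH5 and CLDN5 are proteins of the contacts between endothelial cells. KDR is the main receptor for VEGF, TEK is the receptor for angiopoietins, and TIE1 is its orphan partner. ERG is a transcription factor that keeps endothelial cells in their identity. VWF is the clotting glycoprotein stored in Weibel-Palade bodies, and EMCN is a mucin-like surface glycoprotein. NOS3 makes the nitric oxide that relaxes the smooth muscle beneath, and low nitric oxide availability is a known feature of atherosclerotic vessels.

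Levels are FPKM, fragments scaled to transcript length and to library size, so levels of different genes can be compared per length. Relative sequencing depths, read from the steps between low FPKM values, lay between 1 and 1.37, and the number of fragments behind a value is not known. The FPKM values summed to 272207 to 287141 in the NC libraries and to 330222 to 338690 in the HFCF libraries. The first HFCF pig stood apart in blood transcripts: HBB, a haemoglobin chain, was 2846 FPKM there against 21.3 to 174.5 FPKM in the other 5 pigs. Values of the 10 genes without this pig are given beside those with it where they moved by over 1.5 times or changed sign.

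Of the 10 endothelial genes, 0 passed an adjusted p of 0.05 between the diets in limma, while 28.9% of the 15384 tested genes did. At an unadjusted p under 0.05 there were 3 of the 10 (TEK, NOS3 and KDR), against 42.3% of all tested genes, and 0 of the 10 passed the adjusted threshold when each gene was fitted alone. TEK and KDR were higher in all 3 HFCF pigs than in any NC pig, as were 36.1% of all tested genes. NOS3 and CLDN5 had lower means in the HFCF group, with overlapping groups. PECAM1, VWF, CDH5, TIE1 and ERG differed by log2 fold changes between -0.25 and 0.11. In whole tissue, fewer endothelial cells and less RNA per cell cannot be told apart.

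The log2 fold change was positive for 5 of the 10 genes and negative for 5. Their median was -0.03, while that of all tested genes was 0.32. Scaling of the libraries matters here, since quantile normalization moved that general shift to -0.075, rescaling to TPM to 0.085 and median-ratio scaling to -0.0027. The share of called genes that were higher in the HFCF group was 78.7% with the deposited values and 49.5%, 59.2% and 50.8% with these 3 scalings. Relative to the median of all tested genes, 7 of the 10 endothelial genes lay below it and TEK, KDR and EMCN above it, while 5 lay below it with quantile normalization. The median of the 10 genes was -0.17 with quantile normalization, -0.28 with TPM and -0.38 with median-ratio scaling.

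**Figure D1:**
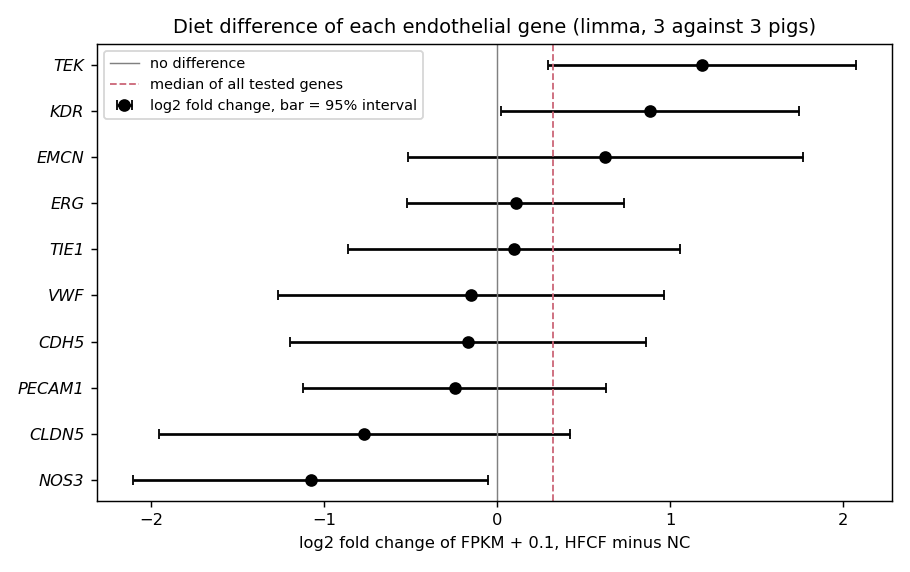
Log2 fold change of FPKM + 0.1 (HFCF minus NC) for each of the 10 endothelial genes, with its 95% interval from limma (3 against 3 pigs). The intervals of TEK, KDR and NOS3 exclude 0, and the dashed line marks the median of all tested genes, 0.32.

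PECAM1 (ENSSSCG00000017277), an adhesion protein of endothelial contacts that platelets and some leukocytes also carry, was 74.2, 92.8 and 40.9 FPKM in the NC pigs and 75.6, 61.1 and 36.5 FPKM in the HFCF pigs. The third pig of each group was its lowest, and the groups overlapped over most of their range. The log2 fold change was -0.25 (SE 0.37, limma adjusted p = 0.648), and without the first HFCF pig it was -0.47. CDH5 (ENSSSCG00000035772), the cadherin of endothelial adherens junctions, was 37.4, 37.3 and 18.8 FPKM in the NC pigs and 46.9, 25.0 and 15.8 FPKM in the HFCF pigs. Both the highest and the lowest CDH5 value were found in HFCF pigs. Its log2 fold change was -0.17 with a 95% interval from -1.20 to 0.86, and without the first HFCF pig it was -0.58 (limma adjusted p = 0.299).

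CLDN5 (ENSSSCG00000041667), the claudin of endothelial tight junctions, was 37.9, 38.7 and 15.9 FPKM in the NC pigs. In the HFCF pigs it was 33.3, 13.0 and 10.9 FPKM. The second and the third HFCF pigs were below every NC pig, and the first lay inside the NC range. The log2 fold change was -0.77 (SE 0.50, limma adjusted p = 0.287), and without the first HFCF pig it was -1.26 (limma adjusted p = 0.0811).

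Among the receptors, TEK (ENSSSCG00000005122) was 5.05, 5.14 and 3.08 FPKM in the NC pigs and 15.6, 10.6 and 5.88 FPKM in the HFCF pigs. Every HFCF pig was above every NC pig. The group means were 4.42 ± 1.16 and 10.7 ± 4.86 FPKM (SD, n = 3 each), and limma gave a log2 fold change of 1.18 with a standard error of 0.38 (adjusted p = 0.0541). Without the third HFCF pig the adjusted p of TEK was 0.0209 (limma), and without the first HFCF pig it was 0.131 (limma). KDR (ENSSSCG00000008844) was 2.45, 2.93 and 2.11 FPKM in the NC pigs and 8.24, 3.86 and 3.15 FPKM in the HFCF pigs. The groups again did not overlap, although the lowest HFCF pig was close to the highest NC pig. The log2 fold change of KDR was 0.88 (SE 0.37, limma adjusted p = 0.111), and it was 0.48 without the first HFCF pig. A separation without overlap was seen in 48.2% of all tested genes, with the HFCF group higher in 36.1% and lower in 12.1%.

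TIE1 (ENSSSCG00000003950), in the same receptor family as TEK, had overlapping groups. It was 16.9, 17.5 and 10.05 FPKM in the NC pigs and 25.8, 16.1 and 8.77 FPKM in the HFCF pigs, so the HFCF values spanned the whole NC range. Its log2 fold change of 0.10 (limma adjusted p = 0.877) was negative after each of the 3 scalings, and it was -0.27 without the first HFCF pig.

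The study set a fold change of 2 in either direction and a p-value of 0.05 for differentially expressed genes, and its sequencing methods name no test for them. Read here as a ratio of mean FPKM with the unadjusted limma p, this rule was met by 2 of the 10 genes: TEK (ratio of means 2.42) and KDR (ratio 2.04) counted as higher in the HFCF group. Of all tested genes 25.5% passed that rule, 20.7% as higher and 4.82% as lower. NOS3 had a ratio of 0.5005 and an unadjusted p of 0.0418 (limma), just outside that rule. In the RefSeq annotation of a later pig assembly an uncharacterised protein-coding locus overlaps TEK and a long non-coding locus overlaps PECAM1, while none overlaps the other 8 genes. How reads were shared at such loci is not given in the sources used here, so the levels of TEK and PECAM1 carry that uncertainty.

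The ligands of these receptors were read from a list of 8 genes, of which 7 were tested. Of these, 3 rose and 0 fell, with a median log2 fold change of 1.11, while 22.8% of all tested genes rose and 6.16% fell. VEGFA, the principal ligand of KDR, was 5.54, 7.04 and 7.42 FPKM in the NC pigs and 23.3, 20.3 and 12.1 FPKM in the HFCF pigs. All HFCF pigs exceeded all NC pigs (log2 fold change 1.42 with SE 0.27, limma adjusted p = 0.00995). ANGPT2, a context-dependent TEK ligand released by endothelial cells, rose from 1.65 ± 0.56 to 4.62 ± 1.40 FPKM (SD, n = 3 each). ANGPT1, the activating TEK ligand, was low in both groups and rose from 0.25 ± 0.02 to 1.04 ± 0.58 FPKM. The adjusted p of ANGPT1 was 0.0338 (limma) and stayed under 0.05 in 3 of 15 alternatives, that of ANGPT2 was 0.0201 (limma) and stayed so in 10 of 16, and neither held with median-ratio scaling. ANGPT1 lost its call without any one NC pig or without the first or the third HFCF pig, and ANGPT2 without the second NC pig or without the first or second HFCF pig. PGF, a ligand of FLT1, averaged 3.36 ± 1.87 FPKM with normal chow and 6.85 ± 1.57 FPKM with the HFCF diet (limma adjusted p = 0.0641).

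ERG (ENSSSCG00000022318), the transcription factor, was 17.5, 21.5 and 29.2 FPKM in the NC pigs and 26.2, 30.0 and 17.4 FPKM in the HFCF pigs. It was the exception among the 10 genes in the NC group, being highest in the third pig, where the other 9 were lowest. Its log2 fold change was 0.11 with a 95% interval from -0.52 to 0.73. ERG was thereby the only one of the 10 genes whose interval excluded a 2-fold change in both directions, and the sign of its estimate turned negative after each of the 3 scalings. Without the first HFCF pig the log2 fold change of ERG was 0.04.

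VWF (ENSSSCG00000000712) was 31.4, 32.1 and 18.2 FPKM in the NC pigs and 50.9, 17.3 and 15.2 FPKM in the HFCF pigs. The second and the third HFCF pigs lay below all NC pigs, and the first lay above all of them. The log2 fold change was -0.15 (limma adjusted p = 0.835), and it was -0.70 (limma adjusted p = 0.127) without that pig. In the same pig PPBP, a platelet chemokine, was 5.71 FPKM, against at most 0.0913 FPKM in the other 5. Platelets and their precursors also make VWF, and the part of these cells in its level was not tested. EMCN (ENSSSCG00000038080) was 3.41, 6.39 and 2.41 FPKM in the NC pigs and 11.2, 4.212 and 4.201 FPKM in the HFCF pigs. The HFCF values overlapped the NC range (log2 fold change 0.63 with SE 0.49, limma adjusted p = 0.367), and the log2 fold change was 0.16 without the first HFCF pig.

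NOS3 (ENSSSCG00000016450) was 37.0, 51.9 and 24.6 FPKM in the NC pigs and 16.2, 30.6 and 10.01 FPKM in the HFCF pigs. The first and the third HFCF pigs were below every NC pig, while the second lay above the third NC pig. The means were 37.8 ± 13.7 and 18.9 ± 10.6 FPKM (SD, n = 3 each). The log2 fold change was -1.08 (standard error 0.44, 95% interval from -2.11 to -0.05, limma adjusted p = 0.104). Its adjusted p was under 0.05 after median-ratio scaling (0.0494, limma) and without the second HFCF pig (0.0398, limma). Without the third HFCF pig the log2 fold change of NOS3 was -0.70 (limma adjusted p = 0.241), and without the second NC pig it was -0.82 (limma adjusted p = 0.269). ATG9B, the neighbour of NOS3 in many mammals, was at most 0.293 FPKM in any pig.

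The levels of the 10 genes spanned more than an order of magnitude in the NC group, from PECAM1 at 69.3 ± 26.3 FPKM to KDR at 2.49 ± 0.41 FPKM (SD, n = 3). NOS3 was second, followed by CDH5, CLDN5, VWF, ERG, TIE1, TEK and EMCN. Between neighbours in this order the ranges over the 3 pigs overlapped everywhere except from TIE1 to TEK. In the HFCF group NOS3 was sixth, after PECAM1, CDH5, VWF, ERG and CLDN5, and all neighbouring ranges overlapped. PECAM1 was first and TEK, EMCN and KDR were the last 3 in both groups.

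The spread between pigs of the same diet was large and ran through most of the genes together. The third HFCF pig was the lowest of its group for 10 of the 10 genes, and the third NC pig was the lowest of its group for 9. The first HFCF pig was the highest of its group for 8, the exceptions being ERG and NOS3. The geometric mean of the 10 levels was 16.6, 19.6 and 11.05 FPKM in the NC pigs and 25.0, 15.7 and 10.15 FPKM in the HFCF pigs. Within a diet the highest pig exceeded the lowest by 1.39-fold for KDR to 2.65-fold for EMCN in the NC group, and by 1.72-fold for ERG to 3.34-fold for VWF in the HFCF group.

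**Figure D2:**
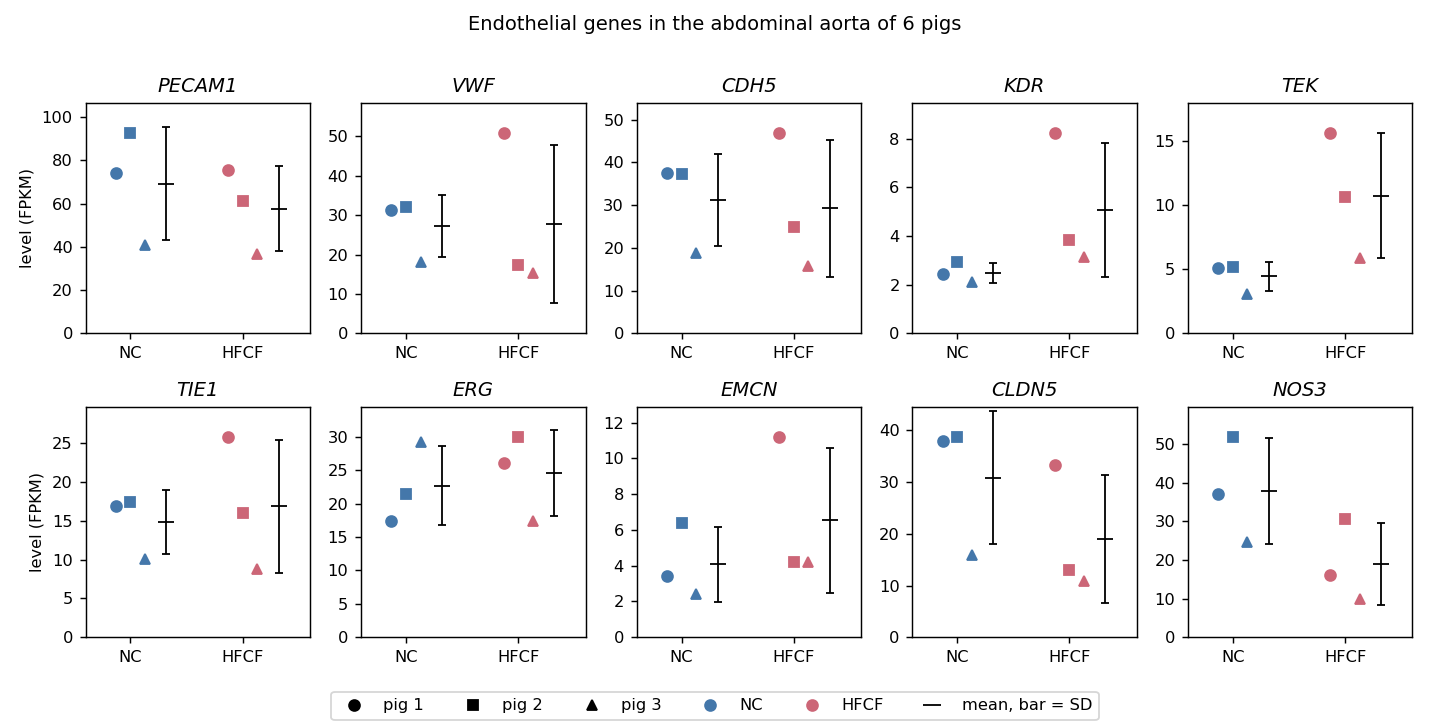
Level (FPKM) of each endothelial gene in each pig, with the group mean and SD beside the points. Symbols mark pig numbers within a diet, and the labels do not say that these numbers pair pigs across diets. TEK and KDR are higher in all 3 HFCF pigs than in the NC pigs, as are 36.1% of all tested genes. The third pig of each diet is at the bottom for most genes.

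To set aside this shared spread, each gene was expressed as a log2 ratio to CDH5 in the same pig, a quantity that does not depend on how libraries are scaled. The ratio of NOS3 to CDH5 was a planned comparison, and the other 8 ratios were added after the values had been seen. TEK stood at -2.89, -2.86 and -2.61 relative to CDH5 in the NC pigs and at -1.59, -1.23 and -1.42 in the HFCF pigs. The 2 groups were separated by several times their spread, with a difference of 1.37 between means of -2.79 ± 0.15 and -1.41 ± 0.18 (SD, n = 3 each). KDR stood at -3.93, -3.67 and -3.16 in the NC pigs and at -2.51, -2.69 and -2.33 in the HFCF pigs, a difference of 1.08. Neither ratio overlapped between the diets.

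CLDN5 relative to CDH5 was 0.02, 0.05 and -0.24 in the NC pigs against -0.49, -0.95 and -0.53 in the HFCF pigs, a difference of -0.60 without overlap. The ratio of TIE1 to CDH5 differed by 0.27, also without overlap. TEK, KDR, TIE1 and CLDN5 each reached p = 0.1 in the exact two-sided permutation test, the smallest value that 3 against 3 pigs can give, and 0.225 after Benjamini-Hochberg adjustment over the 9 ratios (exact test). Across all tested genes, the log2 difference to CDH5 was higher in the HFCF group without overlap for 16.1% and lower for 2.43%. When all genes were set relative to CDH5 and fitted with limma, 6.86% of them and 0 of the 9 endothelial genes passed an adjusted p of 0.05, with 0.278 for TEK and 0.441 for KDR. Relative to PECAM1 in place of CDH5, 11.1% of all genes and again 0 of the other 9 endothelial genes did so, with a log2 fold change of 1.43 and an adjusted p of 0.112 for TEK (limma). In these fits the spread of CDH5 or PECAM1 between pigs entered the values of every gene. Its part in these shares and p-values was not tested.

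For PECAM1 and VWF the log2 ratio to CDH5 differed between the diets by -0.08 and 0.02 (exact permutation p = 0.8 and 1), with overlapping groups. NOS3 relative to CDH5 was -0.02, 0.47 and 0.39 in the NC pigs. In the HFCF pigs it was -1.53, 0.29 and -0.66. Its SD was 0.26 in the NC group and 0.91 in the HFCF group. The difference of -0.91 gave p = 0.2 in the exact permutation test, and it was -0.46 without the first HFCF pig. That pig had the highest CDH5 level and the lowest ratio of NOS3 to CDH5 of all 6. ERG varied relative to CDH5 as well, with log2 ratios from -1.10 to 0.63 in the NC pigs alone.

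**Figure D3:**
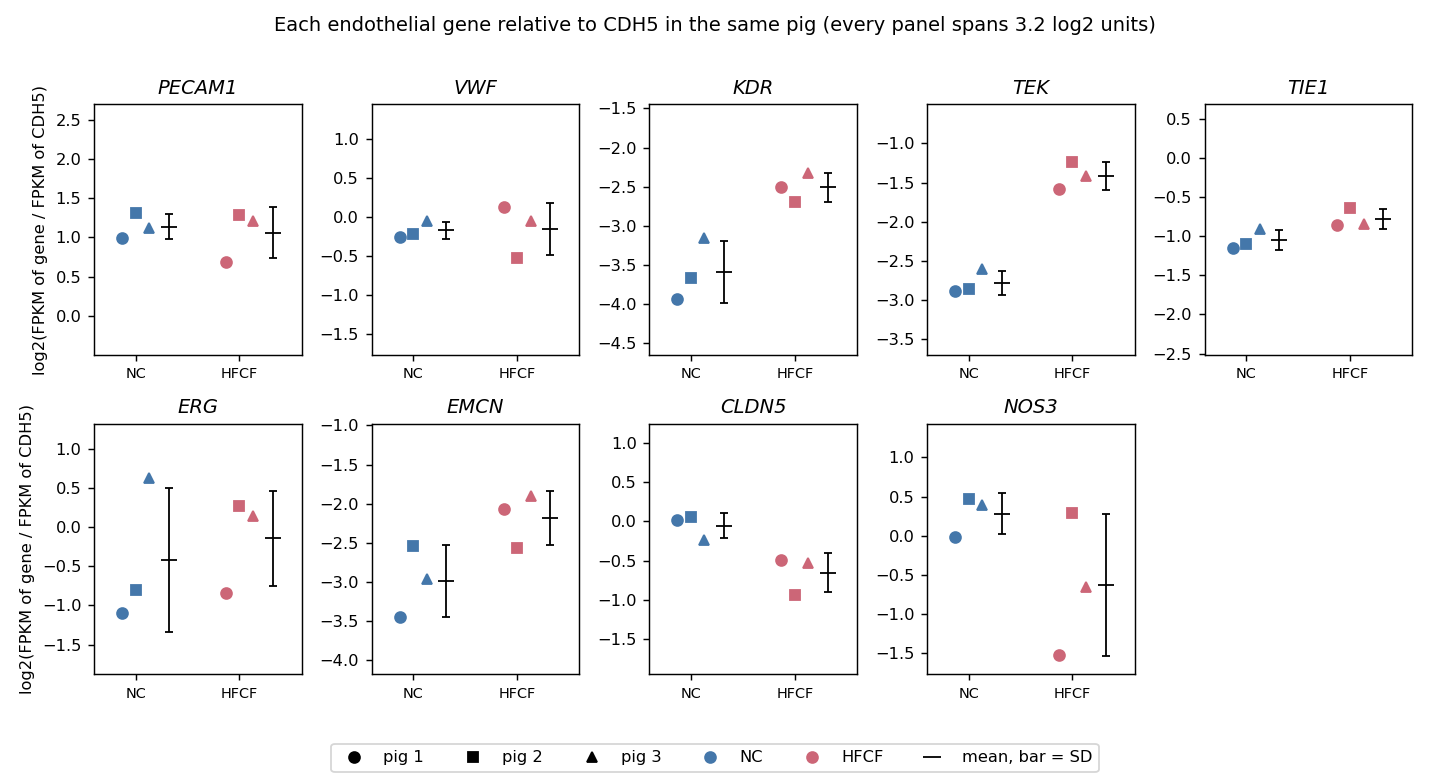
Log2 ratio of FPKM of each gene to that of CDH5 in the same pig, with group mean and SD; every panel covers the same number of log2 units. TEK and KDR lie higher and CLDN5 lower in all HFCF pigs, PECAM1 and VWF overlap, and NOS3 is scattered in the HFCF group.

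The genes whose profiles over the 6 libraries came closest to these were sought among the 10074 other named genes with a mean of 1 FPKM or more, by the root mean square difference of centred log2 values. Closest to the mean of the 10 genes were FLT1 (0.11), ZNF521 (0.11), SEMA3G (0.12), PLAT (0.14) and S1PR1 (0.15). FLT1 is the VEGFA receptor of endothelium, PLAT encodes tissue plasminogen activator, and S1PR1 is the sphingosine 1-phosphate receptor of endothelial cells. FLT1 itself was 9.08, 8.51 and 4.89 FPKM in the NC pigs and 11.8, 7.81 and 4.88 FPKM in the HFCF pigs, and its log2 fold change was 0.08 (SE 0.37, limma adjusted p = 0.888).

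NOS3 lay farther from the mean of the 10 genes (0.73) than any other of them, and TIE1 lay closest (0.11). The genes closest to NOS3 were LMCD1 (0.19), SNORD49A (0.21), TAF9B (0.22), PFKP (0.26) and FOXL1 (0.26). None of these 5 is on the endothelial lists used here. LMCD1, a LIM domain protein, was 61.8, 74.5 and 33.7 FPKM in the NC pigs and 21.2, 44.8 and 19.5 FPKM in the HFCF pigs, low in the first and the third HFCF pigs as NOS3 was. PFKP is the platelet-type phosphofructokinase of glycolysis. These are the closest of many candidates over 6 libraries and are given as a description.

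**Figure D4:**
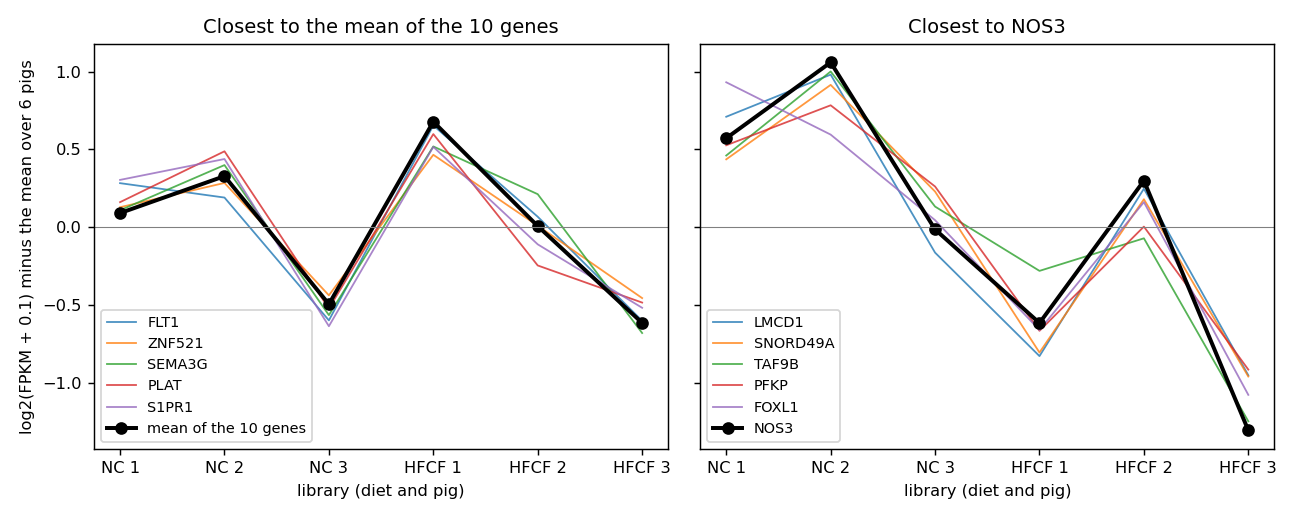
Centred log2(FPKM + 0.1) over the 6 libraries for the mean of the 10 endothelial genes (left, black) and for NOS3 (right, black), each with the 5 genes of the smallest root mean square difference from it. The mean of the 10 genes peaks in the first HFCF pig, where NOS3 is low.

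The other genes of the nitric oxide pathway were read from a list of 37, of which 30 were tested. Of these, 6 rose, 2 fell and 22 did not pass the test, against 22.8% and 6.16% of all tested genes. The median log2 fold change was 0.11, below the 0.32 of all tested genes. NOS2, the inducible synthase, averaged 0.67 ± 0.27 FPKM with normal chow and 0.81 ± 0.42 FPKM with the HFCF diet (SD, n = 3 each; limma adjusted p = 0.811). NOS1, the neuronal synthase, was below the filter of 0.1 FPKM.

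Genes of the cofactor tetrahydrobiopterin, which NOS3 needs to make nitric oxide, moved in both directions. PTS, its second synthetic enzyme, was 5.67, 4.52 and 6.01 FPKM in the NC pigs and 20.1, 20.1 and 21.1 FPKM in the HFCF pigs. The HFCF values were nearly identical and several-fold above the NC values (log2 fold change 1.91 with SE 0.16, limma adjusted p = 0.000893). SPR, its last synthetic enzyme, fell from 12.2 ± 0.64 to 7.32 ± 1.16 FPKM (log2 fold change -0.74, limma adjusted p = 0.0192). GCH1, its first and rate-limiting enzyme, averaged 1.03 ± 0.32 FPKM with normal chow and 2.10 ± 0.87 FPKM with the HFCF diet (limma adjusted p = 0.119). GCHFR, which mediates feedback on GCH1, rose with a log2 fold change of 0.78 (limma adjusted p = 0.0432).

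For the substrate arginine, SLC7A1, the cationic amino acid transporter, was 6.84, 8.55 and 6.75 FPKM in the NC pigs and 2.38, 2.80 and 2.89 FPKM in the HFCF pigs. The groups were far apart (log2 fold change -1.42 with SE 0.19, limma adjusted p = 0.00302). Its relative SLC7A2 was 2.49 ± 1.83 and 5.45 ± 1.05 FPKM in the 2 groups (limma adjusted p = 0.0701). ASS1, which regenerates arginine, had a log2 fold change of -0.01. DDAH1, which breaks down the endogenous inhibitor ADMA, rose with a log2 fold change of 0.88 (SE 0.25, limma adjusted p = 0.0396). DDAH2, more abundant at 105.4 ± 7.74 FPKM in the NC group, was 91.3 ± 19.4 FPKM in the HFCF group (limma adjusted p = 0.397).

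Among proteins that bind or relocate NOS3, NOSTRIN, which directs NOS3 away from the plasma membrane, was 4.95, 5.93 and 3.62 FPKM in the NC pigs and 10.8, 12.9 and 9.37 FPKM in the HFCF pigs. All HFCF pigs were above all NC pigs (log2 fold change 1.19 with SE 0.23, limma adjusted p = 0.0106). CAV2, the partner of caveolin 1, rose from 13.0 ± 1.99 to 31.0 ± 2.65 FPKM (log2 fold change 1.26, limma adjusted p = 0.00301). CAV1, which holds NOS3 inactive in caveolae, averaged 42.3 ± 5.91 FPKM with normal chow and 43.8 ± 5.30 FPKM with the HFCF diet, and its log2 fold change was 0.05 (SE 0.17). Downstream, the guanylate cyclase subunit GUCY1A1 was 3.14 ± 0.06 and 6.84 ± 3.34 FPKM (limma adjusted p = 0.0585), and PDE1A, which degrades cyclic nucleotides, rose with a log2 fold change of 0.76 (limma adjusted p = 0.0176). PTS, CAV2, SLC7A1 and NOSTRIN kept their calls in 16 of 16 alternatives. DDAH1, GCHFR and PDE1A lost theirs with each of the 3 scalings and kept them in 5, 4 and 8 of 16 alternatives, while SPR kept its call in 14 and lost it without the first NC pig. A single pig left out also ended the call of PDE1A (first or second NC pig, second or the third HFCF pig), of DDAH1 (second or the third NC pig, first or second HFCF pig) and of GCHFR (first or second NC pig, any HFCF pig). With median-ratio scaling the list had 3 genes higher and 6 lower. PTS, CAV2, SLC7A1 and NOSTRIN were named as the 4 lowest p-values of the list, and the other genes of this pathway were picked after their values had been seen. Several of them, among them CAV1, CAV2 and the cyclase subunits, are also made by smooth muscle and other cells of the wall.

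**Figure D5:**
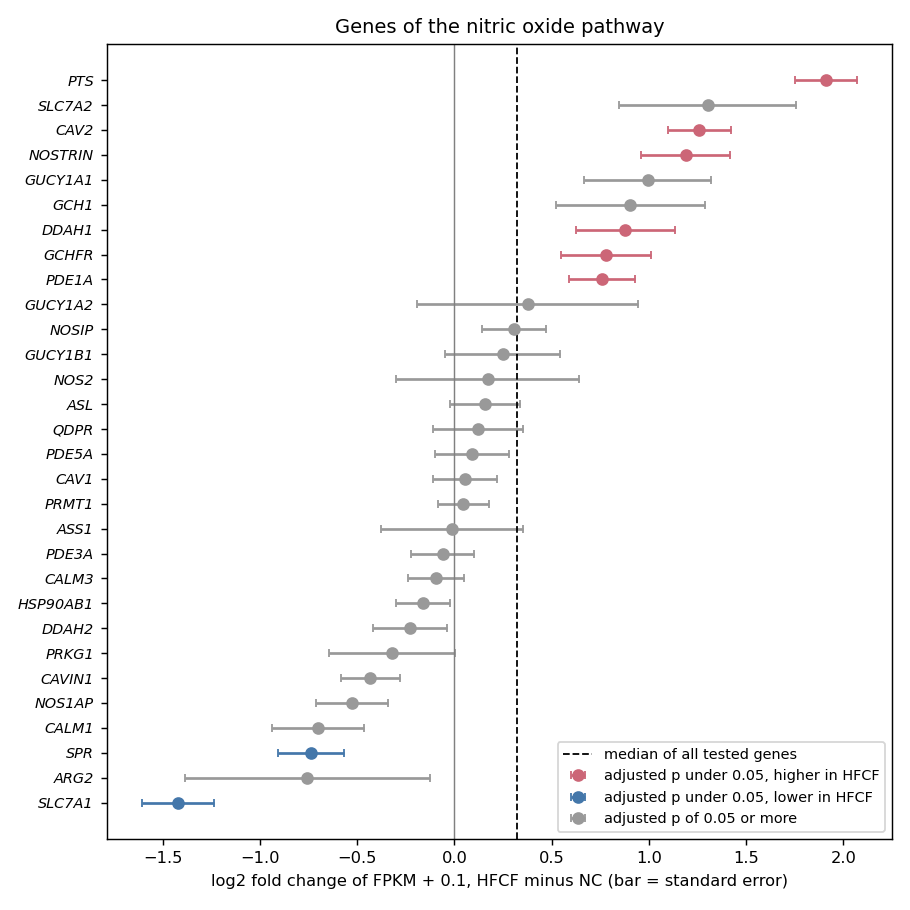
Log2 fold change of FPKM + 0.1 (HFCF minus NC) with its standard error for the 30 tested genes of the nitric oxide pathway other than NOS3. PTS, CAV2, NOSTRIN, DDAH1, GCHFR and PDE1A passed the test as higher, the last 3 of them only before other scalings, and SLC7A1 and SPR as lower. The dashed line is the median of all tested genes.

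A wider list of 30 endothelial genes had 28 tested, of which 3 rose, 5 fell and 20 did not pass the test, with a median log2 fold change of 0.15. The shares over all tested genes were 22.8% higher and 6.16% lower, and with median-ratio or quantile scaling 1 gene of the list was higher and 5 lower. MCAM, an adhesion molecule shared with smooth muscle, was 428.8, 316.0 and 457.6 FPKM in the NC pigs and 93.6, 111.6 and 97.1 FPKM in the HFCF pigs. The 2 groups were far apart (log2 fold change -1.98 with SE 0.18, limma adjusted p = 0.00115). AQP1, a water channel, fell from 167.9 ± 45.8 to 31.2 ± 16.3 FPKM, and THBD, the thrombin receptor that starts anticoagulation, fell from 14.0 ± 4.46 to 4.16 ± 0.97 FPKM (SD, n = 3 each). CALCRL, the receptor of adrenomedullin and CGRP, rose from 0.48 ± 0.18 to 3.00 ± 0.78 FPKM (log2 fold change 2.43, limma adjusted p = 0.00369). ESAM, a junction protein, and CD93 fell as well, while ADGRL4 and GPIHBP1 rose but lost their calls with median-ratio scaling. ADGRL4 also lost its call without the first or the third NC pig or the first or second HFCF pig, and GPIHBP1 without the first NC pig or any HFCF pig. In which cells MCAM, AQP1, THBD, ESAM and CD93 fell was not tested. ROBO4, PTPRB, S1PR1, FLT1 and ICAM2, picked after their values had been seen, had log2 fold changes between -0.24 and 0.08. Other uncalled genes were not as flat. RAMP2 (log2 fold change 1.14, limma adjusted p = 0.0527) and TFPI (limma adjusted p = 0.0667) were higher in all HFCF pigs. The same held for 36.1% of all tested genes. TFPI was low in every pig, ranging from 0.017 to 0.22 FPKM on normal chow and from 0.31 to 0.99 on the HFCF diet. CLEC14A, MMRN2 and ENG had overlapping groups and log2 fold changes of 0.72, 0.71 and 0.55. The lowest uncalled value was -0.28, for PROCR. Of the 28 tested genes, 17 had a positive and 11 a negative log2 fold change.

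Of 20 transcription factors of endothelial cells, 3 rose and 3 fell, again beside 22.8% and 6.16% of all tested genes, and 2 were higher and 4 lower with median-ratio or quantile scaling. LYL1, a bHLH factor of blood and endothelium, rose from 0.61 ± 0.34 to 7.10 ± 2.04 FPKM (limma adjusted p = 0.00286). HHEX rose from 1.14 ± 0.21 to 6.44 ± 3.60 FPKM (limma adjusted p = 0.00796). LYL1 and HHEX are also expressed in blood cells, including macrophages. ETS2 fell from 63.6 ± 5.69 to 32.3 ± 7.04 FPKM and FOXC2 from 68.9 ± 19.0 to 32.3 ± 1.61 FPKM. EPAS1, a hypoxia-inducible factor, averaged 315.6 FPKM in the NC group and fell with a log2 fold change of -0.85. EPAS1 lost its call without the first NC pig. In which cells ETS2, FOXC2 and EPAS1 fell was not tested. TCF4 rose with a log2 fold change of 1.13 but kept its call in 3 of 16 alternatives. It lost its call without any one NC pig or without the first or second HFCF pig. FLI1, the closest relative of ERG, had a log2 fold change of 0.15 and SOX18 one of 0.00, with adjusted p-values of 0.83 and 0.999 (limma). Both were picked after their values had been seen. KLF2 and ELK3 were not called but were higher in all HFCF pigs, as were 36.1% of all tested genes. Their log2 fold changes were 0.59 and 1.01 (limma adjusted p = 0.0943 and 0.0772). Of the 20 factors, 13 had a positive and 7 a negative log2 fold change.

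Of 20 tested genes of arterial, venous or lymphatic endothelium, 4 rose and 0 fell with the deposited values, beside 22.8% and 6.16% of all tested genes. With median-ratio scaling 3 were higher and 3 lower, with quantile normalization 2 and 1, and with TPM 3 and 1. The 4 were CCL21, a chemokine of lymphatic endothelium (53.4 ± 2.46 to 181.6 ± 94.9 FPKM), APLN, the apelin ligand (0.15 ± 0.15 to 2.46 ± 2.09 FPKM), and the VEGF co-receptors NRP2 (2.30 ± 0.16 to 8.62 ± 5.35 FPKM) and NRP1 (3.04 ± 0.25 to 11.3 ± 5.82 FPKM; SD, n = 3 each). NRP1 lost its call with each of the 3 scalings. CCL21, NRP2 and NRP1 lost theirs without any one of the 3 NC pigs, APLN without the first or the third, and APLN and NRP1 also without the first HFCF pig, NRP2 without the second and NRP1 without the third. Of 12 tested junction partners, 0 rose and 2 fell: CTNNA1, the alpha-catenin of adherens junctions (119.8 ± 10.8 to 60.2 ± 8.21 FPKM), and JAM3 (36.1 ± 16.1 to 6.76 ± 0.49 FPKM). Both are shared with other cells of the wall. JUP, plakoglobin, and CTNND1, p120 catenin, had log2 fold changes of -0.75 and -0.35 (adjusted p = 0.0515 and 0.134, limma), and both were called lower with each of the 3 scalings.

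Among genes of endothelial activation, VCAM1, the ligand of leukocyte integrins, averaged 25.1 ± 11.8 FPKM with normal chow and 45.5 ± 8.60 FPKM with the HFCF diet (limma adjusted p = 0.0652). CCL2 and CXCL8 had log2 fold changes of 1.10 and 1.23 with adjusted p-values of 0.217 and 0.225 (limma), and their groups overlapped. SELP, F3 and ICAM1 had overlapping groups too, with log2 fold changes of 0.55, 0.51 and -0.07 (limma adjusted p = 0.506, 0.385 and 0.858). Of the 7 tested genes of this list, 0 were called higher and 1 lower, beside 22.8% and 6.16% of all tested genes. Over these 7 lists, 32 of 124 tested genes passed the test, 25.8% beside 28.9% of all tested genes. By direction, 19 were higher (15.3% beside 22.8%) and 13 lower (10.5% beside 6.16%).

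Some markers of other cells differed between the diets as well. Over all tested genes 22.8% were called higher and 6.16% lower, with a median log2 fold change of 0.32. All 16 macrophage genes rose (15 of them with each of the 3 scalings), with a median log2 fold change of 4.04, and their FPKM summed to 118.4 to 128.1 in the NC libraries and to 2987, 1228 and 1158 in the HFCF libraries. CD68, for example, rose from 4.48 ± 1.06 to 157.6 ± 89.9 FPKM. Of 12 smooth muscle genes, 7 fell and 1 rose (CALD1, not called with median-ratio scaling, with TPM or without the first NC pig), with a median of -0.92, and their sum was 18182 to 24918 FPKM in the NC pigs and 9086 to 15066 FPKM in the HFCF pigs. The 8 calls became 2 without the first NC pig, 5 without the first HFCF pig and 4 without the second. MYOCD, the coactivator of the contractile programme, fell from 44.6 ± 18.5 to 6.64 ± 3.08 FPKM. No gene of either list was at 0 in all libraries. Every FPKM is a share of its library, and the part of these shifts in the endothelial values was not tested.

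The other lists were smaller. Their counts stand beside 22.8% higher and 6.16% lower among all tested genes, and their medians beside 0.32. Of 6 pericyte genes 1 fell, CSPG4, and of 9 fibroblast genes 1 rose, LUM. Of 8 adipocyte genes 1 fell, PLIN4, which lost its call without any one NC pig or without the first or second HFCF pig. All 8 had a negative log2 fold change, with a median of -1.35. ADIPOQ, adiponectin, was 39.1, 59.9 and 1.22 FPKM in the NC pigs and 4.08, 0.30 and 4.04 FPKM in the HFCF pigs. It was low in all HFCF pigs and in the third NC pig, the lowest NC pig for 9 endothelial genes. The first and the third HFCF pigs had nearly equal ADIPOQ, but other adipocyte genes differed between them in both directions. PLIN1 was 1.40 and 4.46 FPKM and PLIN4 3.68 and 10.7 FPKM in these pigs, while FABP4 was 86.4 and 71.8 FPKM and THRSP 0.89 and 0.61 FPKM. The first HFCF pig was the highest of its group for 8 endothelial genes and the third the lowest for all 10. The part of fat in the endothelial levels was not tested. Of 10 lymphocyte genes 2 rose, CD79A and CD2, the latter not without the first NC pig. None of 7 tested platelet genes and none of 3 tested red blood cell genes passed the test in limma (0 of each at an unadjusted p under 0.05 for red blood cell genes and 1 for platelet genes), and the summed platelet list was 11.01 to 11.41 FPKM in the NC pigs and 21.8, 10.8 and 9.55 FPKM in the HFCF pigs. The sum of the 10 endothelial genes was 165.4 to 306.2 FPKM in the NC pigs and 127.8 to 309.9 FPKM in the HFCF pigs.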

How the data were processed

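Abdominal aorta RNA of 3 NC and 3 HFCF pigs was sequenced, with 1 library per pig. The authors trimmed the reads (cutadapt 1.9 and FastQC in the submitters' processing notes), aligned them with HISAT2 to an earlier pig genome than that of the reference table, ran StringTie and deposited gene-level FPKM, in which 0.0001 stands for 0. Read totals per library are not given in the sources used here, so precision was taken from the spread between pigs. No coordinates or sequences are given, since the builds differ.

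Values were compared as log2(FPKM + 0.1) over 15384 genes with a mean of at least 0.1 FPKM, using limma 3.58.1 in R 4.3.3 with 1 diet term and trended eBayes variances, and p-values were adjusted by Benjamini-Hochberg across the 15384 genes. Fold changes on this scale are understated for low genes. Ratios to CDH5 used exact permutation tests. For the lists, 761 genes without a name in the table took one from an Ensembl symbol table. The plan named the 10 genes, up to 4 genes of each list by p, and the 5 closest profiles. All other genes named from the lists were picked after their values had been seen. The members and lists were chosen with earlier results of these data known. The fit was tested on simulated data, where 102 of 200 genes given a several-fold change passed the adjusted threshold, with 4 false calls. The simulation changed only 200 of the 15384 genes, while 28.9% were called in the data. The adjusted threshold was therefore stricter there, and the recovery does not give the power of the real comparison. A gene without a call can still differ between the diets. Alternatives were other pseudocounts, filters, scalings and variance models, a replicate block, each pig left out, and scaling to CDH5 or PECAM1, which was added after seeing the data. One gene of the activation list is not reported here.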

Additional observations from a re-analysis of the deposited data

How the results depend on the processing

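The 10 endothelial genes gave 0 calls at an adjusted p under 0.05, and 0 in 11 of 16 alternatives. The count was 1 with a mean of at least 1 FPKM (TEK), 1 with median-ratio scaling (NOS3), 2 with a replicate block (TEK and NOS3), 0 to 1 with a pig left out (NOS3 without the second HFCF pig, TEK without the third) and 2 by the fold and p thresholds of the study (TEK and KDR). KDR, TEK, EMCN, CLDN5 and NOS3 kept their direction in all 16, with log2 fold changes of 0.43 to 1.16, 0.83 to 1.56, 0.16 to 1.002, -1.26 to -0.46 and -1.50 to -0.70. TIE1 turned to -0.26, -0.074 and -0.16 and ERG to -0.25, -0.050 and -0.15 with median-ratio scaling, quantile normalization and rescaling to TPM. With a pig left out the log2 fold change ran from -0.59 to 0.052 for PECAM1 (0.0034 without the second NC pig), -0.70 to 0.17 for VWF, -0.58 to 0.20 for CDH5, -0.27 to 0.50 for TIE1 and -0.065 to 0.33 for ERG. Relative to CDH5, VWF was 0.021, and relative to PECAM1, VWF was 0.098 and CDH5 0.077.

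Over all tested genes the 4453 calls (3505 higher, 948 lower) became 2035 higher and 1969 lower with median-ratio scaling, 1748 and 1782 with quantile normalization, and 2227 and 1533 with rescaling to TPM. They were 2908 (2331 and 577) without moderation, 2399 to 3562 (1961 to 2800 and 438 to 784) with a pig left out, 1055 (955 and 100) relative to CDH5 and 1709 (1558 and 151) relative to PECAM1. The 7 endothelial and nitric oxide lists had 32 calls, 17 without moderation and 20 to 32 with a pig left out. NOS3 relative to CDH5 stayed between -1.38 and -0.46. The cause of these shifts was not tested.

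With the replicate block, 2772 genes were called (2232 higher and 540 lower). The labels do not say whether pigs of the same number belong together. The deviations of same-numbered libraries from their group means correlated across genes at 0.02, -0.08 and -0.07. Whether same-numbered pigs shared a batch was not tested. With 3 pigs per diet and an unknown depth, intervals of most of the 10 genes include a 2-fold change.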
